A study of Mus musculus with 12 samples.

Results

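Hearts of untrained mice that had received melanoma cells were compared with hearts of untrained mice that had received saline, over all genes, with the value of every library set beside the group mean. The comparison used 6 of the 12 libraries of the series, 3 labelled tumour and 3 labelled control, chosen by their labels. Tumour libraries 1, 2 and 3 were kept apart because transcripts of melanocytes were abundant in tumour 1 and tumour 2 and near the level of the controls in tumour 3. All mice were male wild-type C57BL/6J mice, 8 weeks old. The control group was labelled saline. The tumour group was given 100000 B16F10 cells, a transplantable mouse melanoma line that grows in C57BL/6 mice, through the tail vein from week 2 of the study. The remaining groups, trained (treadmill running on 5 days a week for 4 weeks) and tumour trained (the same cells and the same running), also had 3 libraries each. They entered the statistical fit, where they help to estimate the spread, and are compared only in the test of whether the tumour difference was the same in trained mice. The labels do not give the day on which hearts were taken, or whether any heart carried visible metastases. Nor do they tie each library to a mouse of its own; the p-values therefore reflect spread among these libraries, which may be technical.

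B16F10 cells given into a vein seed mainly the lung and carry the transcripts of the melanocyte lineage: the transcription factor Sox10, the melanosome matrix protein Pmel and the pigment enzymes Tyrp1 and Dct. Cachexia is the wasting of a tumour-bearing animal, and in the heart it is studied through genes of muscle breakdown, fatty acid use and stress hormone signalling. Metallothioneins bind zinc and copper and are induced by metals, glucocorticoids and inflammation, and haem oxygenase breaks down haem under oxidative stress.

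A pair of metallothioneins and a pair of pigment enzymes are shown by their promoters, the 250 bases before the annotated gene start, taken from RefSeq on the GRCm38.p6 build. All 4 genes chosen for this display had an entry. Mt1 and Mt2, neighbouring metallothionein genes that were higher in all 3 tumour libraries, lie at chr8:94178839-94179088 and chr8:94172368-94172617, both on the plus strand. Capitals mark the core of the metal response element, searched as TGCACNC or TGCGCNC on both strands, which is found in 21.4% of 32851 promoters of this length and 3 or more times in 1.26%.
Mt1: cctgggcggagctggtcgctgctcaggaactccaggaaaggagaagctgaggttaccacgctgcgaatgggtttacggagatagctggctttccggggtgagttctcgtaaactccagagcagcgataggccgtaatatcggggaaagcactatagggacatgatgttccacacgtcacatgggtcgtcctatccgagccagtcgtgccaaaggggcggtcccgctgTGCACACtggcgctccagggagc
Mt2: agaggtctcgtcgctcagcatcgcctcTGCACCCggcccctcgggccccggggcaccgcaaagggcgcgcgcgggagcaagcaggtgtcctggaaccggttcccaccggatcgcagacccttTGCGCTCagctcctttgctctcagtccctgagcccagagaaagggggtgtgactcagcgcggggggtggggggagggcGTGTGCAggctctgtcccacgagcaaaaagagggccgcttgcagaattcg
Within these 250 bases Mt1 held 1 match and Mt2 held 3. Bases after the annotated start were not searched, so the counts do not cover every such element of either gene. Tyrp1 and Dct are pigment enzymes among the 5 genes whose counts define the melanocyte share used below, so they follow it by construction. They lie at chr4:80833963-80834212 on the plus strand and chr14:118052247-118052496 on the minus strand. Here capitals mark the core of the M-box, GTCATGTG, the element bound by the melanocyte transcription factor MITF, searched on both strands and found in 0.916% of the same promoters.
Tyrp1: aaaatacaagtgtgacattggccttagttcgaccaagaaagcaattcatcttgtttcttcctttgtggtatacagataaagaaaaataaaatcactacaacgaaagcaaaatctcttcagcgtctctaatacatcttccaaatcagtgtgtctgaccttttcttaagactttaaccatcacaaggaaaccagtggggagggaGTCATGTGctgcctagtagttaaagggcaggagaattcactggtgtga
Dct: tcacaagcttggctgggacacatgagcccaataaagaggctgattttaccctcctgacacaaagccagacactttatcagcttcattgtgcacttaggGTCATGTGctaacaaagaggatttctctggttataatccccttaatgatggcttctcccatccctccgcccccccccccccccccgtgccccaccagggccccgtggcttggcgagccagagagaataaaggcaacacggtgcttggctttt
Tyrp1 and Dct held 1 match each. A match is a description of the letters and was not tested for binding.

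Total counts were between 10086013 and 10817476 in the control libraries and between 11447637 and 13344847 in the tumour libraries, so 3 counts correspond to 0.225 to 0.297 CPM, the count of a gene scaled to the size of its library. Sox10, Pmel, Tyrp1, Dct and Mlana together held 1.08%, 0.496% and 0.00166% of the counts of tumour 1, 2 and 3, against 6.05e-04% to 0.00104% in the controls. Transcripts of heart muscle cells moved the other way: 15 cardiomyocyte genes held 3.64%, 8.91% and 14.5% of the counts in tumour 1, 2 and 3 and 14.5% to 15.2% in the controls. A list of 34 cell cycle genes held 0.393%, 0.157% and 0.0156% of the counts in the tumour libraries and 0.0158% to 0.0168% in the controls. Tumour 3 was therefore inside or close to the control range for each of these shares, tumour 1 stood farthest away, and tumour 2 lay between them. The labels name the heart as the tissue, while the RNA protocol names livers. The 6 liver markers summed to 0.21 to 6.32 CPM in the controls and 0.296 to 2.49 CPM in the tumour libraries, and cardiomyocyte genes were abundant in all of them. In a bulk sample, fewer cells of a type and less RNA per cell cannot be told apart. Among the controls, a list of immediate-early genes, which respond within minutes to hours to stimulation or handling, held 0.0688% of counts in control 1 and 0.296% and 0.297% in control 2 and 3, against 0.107%, 0.126% and 0.124% in tumour 1, 2 and 3. Results that rest on that difference are named where they occur.

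**Figure D1:**
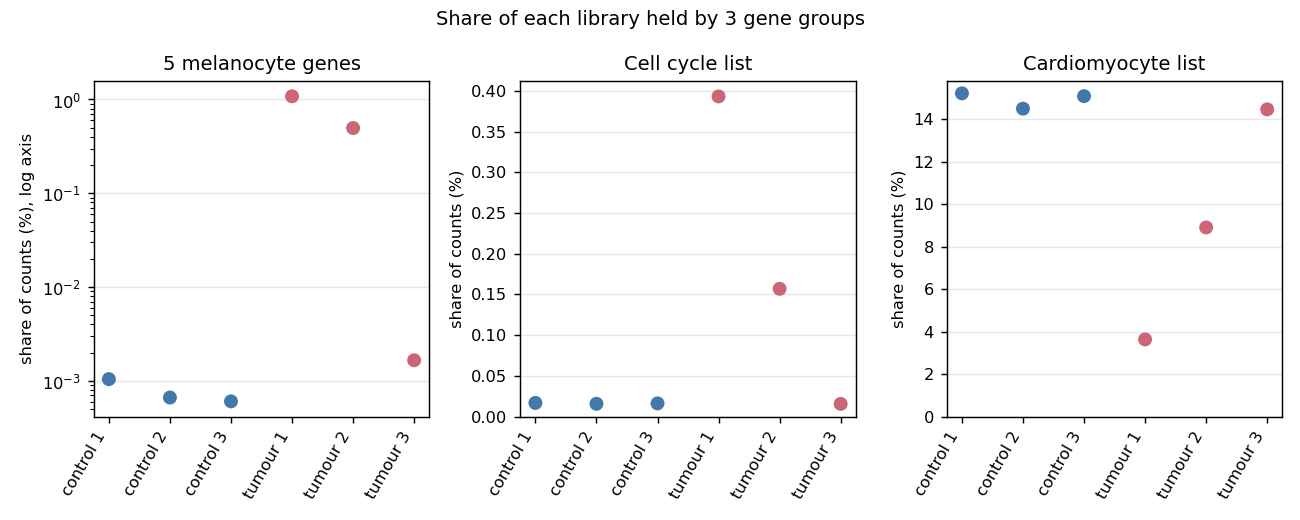
Share of all counts, in percent, held by 5 melanocyte genes (log axis), the cell cycle list and the cardiomyocyte list in each control library (blue) and each tumour library (red). The melanocyte share was 1.08% and 0.496% in tumour 1 and 2 and 0.00166% in tumour 3; the cardiomyocyte share was lowest in tumour 1.

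Of 12778 genes tested, edgeR's quasi-likelihood test called 868 (6.79%) between tumour and control hearts at an adjusted p below 0.05, 681 higher (5.33%) and 187 lower (1.46%). The higher genes mostly followed the order of the melanocyte share: 590 of the 681 (86.6%) were highest in tumour 1, intermediate in tumour 2 and lowest in tumour 3, an order held by 37.4% of all genes tested. Their median log2 difference from the control mean was 2.75, 1.92 and 0.32 in tumour 1, 2 and 3. The 187 lower genes were less uneven, with medians of -1.73, -1.07 and -0.93. All 3 tumour libraries were below all 3 controls for 181 of the 187 (96.8%), against 11.8% of all genes tested. For 438 of the 681 higher genes (64.3%) the lowest tumour library exceeded the highest control, which held for 14.2% of the tested genes. These counts use the same libraries as the calls and are a description. The number called was not stable to the libraries used, and 858 of the 868 had an adjusted p between 0.03 and 0.05. It was between 4 and 7043 when 1 library was left out, the highest without tumour 3, and 182 (113 higher and 69 lower) with tumour 3 as the only tumour library.

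Genes were sorted by library on the log2 CPM scale, as a description of the values with no test. In 65 genes (0.509% of those tested) each tumour library was above all controls and at least 1 log2 unit above the control mean, and in 66 genes (0.517%) each was below by the same rule. A further 889 genes (6.96%) were raised by that amount in tumour 1 and 2 with tumour 3 within 0.5 of the control mean, and 285 (2.23%) were lowered in that way. The opposite pattern, tumour 3 shifted and tumour 1 and 2 near the controls, was found for 38 genes above (0.297%) and 10 below (0.0783%). edgeR called 50 of the 65, 55 of the 66, 375 of the 889 and 7 of the 285, and none of the 48 genes shifted in tumour 3 alone, of which 5 had an unadjusted p below 0.05 and DESeq2 called 0. Among all 12778 genes tested, edgeR called 6.79%, 4395 had an unadjusted p below 0.05 and DESeq2 called 2272. Near the limit of 1, Blm (smallest library difference 1.01) lay just inside the raised class and Snai2 (0.99) just outside, while Ky (-1.01) lay just inside the lowered class and Mmp15 (-0.99) just outside.

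**Figure D2:**
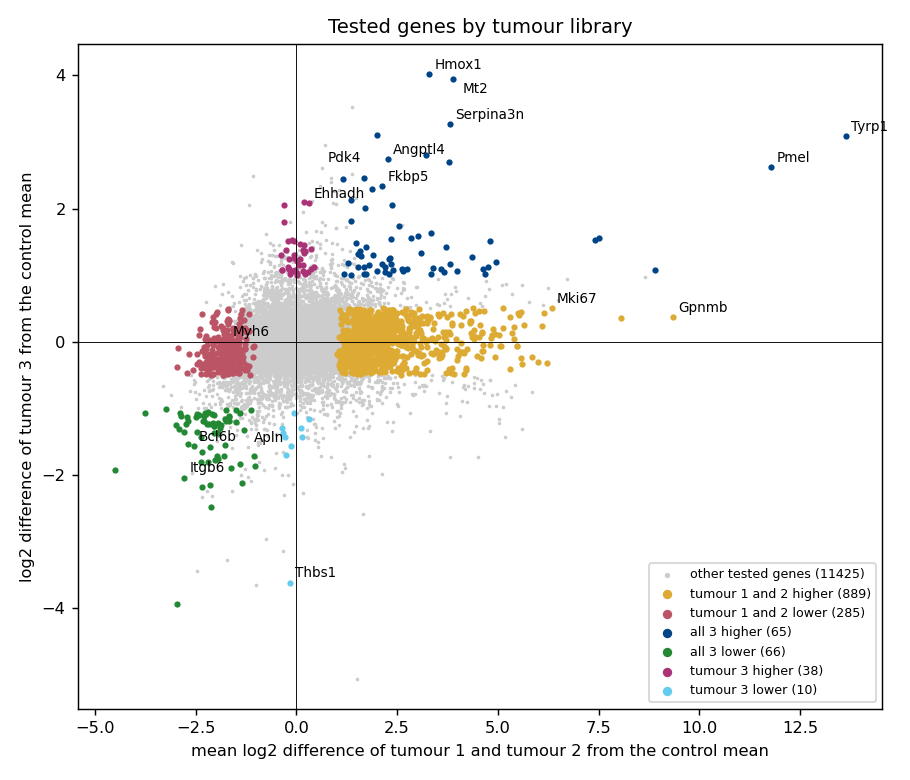
Each point is 1 of 12778 tested genes, with the mean log2 difference of tumour 1 and 2 from the control mean on the x axis and that of tumour 3 on the y axis; colours mark the 6 classes with their gene counts. Most genes far to the right, such as Gpnmb and Mki67, lie near 0 for tumour 3, while Hmox1, Mt2, Fkbp5 and Serpina3n are raised on both axes.

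As scaled here, Mt1 and Mt2 were higher in every library of the tumour group, and not in the order of the melanocyte share. The order of the tumour libraries depends on the scaling, as given below for cardiomyocyte genes. Mt2 (gene ID 17750) was at 14.4, 15.9 and 16.1 CPM in the controls and at 246, 217 and 241 CPM in tumour 1, 2 and 3. The tumour libraries were nearly equal and did not overlap the controls (log2 difference 3.93 ± 0.18 SE, edgeR adjusted p = 1.50e-06). Mt1 (gene ID 17748) was at 173, 173 and 199 CPM in the controls and 481, 435 and 793 CPM in tumour 1, 2 and 3, highest in tumour 3 (1.66 ± 0.22, adjusted p = 0.015). Of 8 tested genes for metallothioneins and zinc transporters, 3 were higher and none lower, against 5.33% and 1.46% of all genes tested. The other was Slc39a6, a zinc importer, at 55.0, 33.0 and 9.32 CPM against 4.20 to 7.20 CPM in the controls, which followed the melanocyte share (2.46 ± 0.52, adjusted p = 0.039).

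Haem oxygenase, as scaled here, was highest in the tumour heart with the fewest melanocyte transcripts. Hmox1 (gene ID 15368) was at 14.2, 12.6 and 15.6 CPM in the controls and 115, 169 and 231 CPM in tumour 1, 2 and 3 (3.61 ± 0.23, edgeR adjusted p = 3.24e-05). Its order over the tumour libraries was the reverse of the melanocyte share, an order held by 33.7% of all genes tested. That order depends on the scaling, since scaling to cardiomyocyte genes raises tumour 1 most. Gclm, a subunit of the enzyme that limits glutathione synthesis, had the same order, with 23.0 to 25.4 CPM in the controls and 34.1, 40.5 and 51.6 CPM in tumour 1, 2 and 3 (0.82 ± 0.17, adjusted p = 0.039). The list of haem, iron and antioxidant genes had 5 of 33 tested members higher and none lower, against 5.33% and 1.46% of all genes tested. Of the 33, 16, 20 and 21 were above all controls in tumour 1, 2 and 3 (48.2%, 45.4% and 31.9% of all genes tested). Below all controls were 14, 7 and 4 (42%, 33.6% and 29%). The other 3 called members of the list went with the melanocyte share. The ferritin light chain Ftl1 was at 365 to 501 CPM in the controls and 1700, 1321 and 625 CPM in tumour 1, 2 and 3. The thioredoxin reductase Txnrd1 was at 63.6 to 74.8 CPM and then 209, 142 and 76.2 CPM, and G6pdx, the entry enzyme of the pentose phosphate pathway, was at 11.3 to 12.3 CPM and then 66.7, 37.6 and 12.2 CPM. Tumour 3 was inside the control range for G6pdx and just above it for Txnrd1.

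Targets of the glucocorticoid receptor were raised in all 3 hearts for some genes and not for others. Of 25 listed, 6, 12 and 13 were above all controls in tumour 1, 2 and 3 (48.2%, 45.4% and 31.9% of all genes tested). Below all controls were 16, 8 and 6 (42%, 33.6% and 29%). The target Tsc22d3 was not raised, at log2 differences of -1.52, -0.37 and -0.01. Sgk1, Per1 and Dusp1 were also below the control mean in all 3, but their controls were widely spread. Per1, at -0.57, -0.37 and -0.56 in tumour 1, 2 and 3, stayed inside the control range, whose lowest value was -1.09. In tumour 3, Sgk1 (-0.60) and Dusp1 (-0.33) were inside it too, with lowest controls of -0.95 and -1.03. Fkbp5 (gene ID 14229), a co-chaperone of the receptor and one of its standard targets, was at 18.1, 16.7 and 17.9 CPM in the controls and 84.0, 69.8 and 89.5 CPM in tumour 1, 2 and 3 (2.21 ± 0.19, edgeR adjusted p = 4.97e-04). Hif3a, a hypoxia-inducible factor subunit, was at 0.63 to 1.24 CPM in the controls and at 3.19, 4.02 and 4.89 CPM (2.17 ± 0.37, adjusted p = 0.039). Fam107a, an actin-binding protein induced by stress, was at 4.47 to 7.85 CPM and then 13.3, 18.6 and 21.7 CPM (1.53 ± 0.31, adjusted p = 0.039). With the kinase Map3k6 (11.3 to 16.5 CPM, then 21.0, 29.2 and 29.9 CPM), 4 of 25 listed targets were higher and 3 lower, against 5.33% and 1.46% of all genes tested. All 4 higher genes had their highest value in tumour 3. The 3 lower members were Nfkbia, Errfi1 and Irs2, and for Errfi1 and Irs2 the controls were split. Irs2, an adaptor of the insulin receptor, was at 7.65, 84.5 and 111 CPM in control 1, 2 and 3 and at 5.20, 8.52 and 10.5 CPM in tumour 1, 2 and 3. Control 2 and 3, the libraries with more immediate-early transcripts, set that difference: with control 1 as the only control it was 0.06 on the log2 scale.

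The acute phase genes that passed the test were above the controls in all 3 hearts and highest in tumour 2. Serpina3n (gene ID 20716), a protease inhibitor induced by inflammation and glucocorticoids, was at 12.8, 12.4 and 12.2 CPM in the controls and 105, 297 and 121 CPM in tumour 1, 2 and 3 (3.81 ± 0.36, edgeR adjusted p = 9.06e-04). Lcn2, a secreted iron-siderophore-binding protein, was at 1.82, 2.24 and 3.15 CPM in the controls and 22.6, 52.8 and 16.3 CPM in tumour 1, 2 and 3 (3.68 ± 0.47, adjusted p = 0.015). Of 18 tested acute phase and STAT3 genes, 4 were higher and none lower, against 5.33% and 1.46% of all genes tested. Above all controls were 6, 14 and 11 of the 18 in tumour 1, 2 and 3 (48.2%, 45.4% and 31.9% of all genes tested). Below all controls were 9, 1 and 1 (42%, 33.6% and 29%). The other called members were Socs3, the feedback inhibitor of cytokine signalling (4.77 to 7.04 CPM, then 17.7, 39.1 and 9.32 CPM), and Timp1, an inhibitor of matrix proteases (1.68 to 2.14 CPM, then 39.7, 70.9 and 3.69 CPM). For these 4 genes the excess over the control mean in tumour 2 was 265% of that in tumour 1 (median), while for 27 called cell cycle genes it was 48.4%. C4b, a complement component, was also higher in all 3, at 13.4 to 16.1 CPM in the controls and 42.0, 56.4 and 40.1 CPM in tumour 1, 2 and 3 (1.64 ± 0.23, adjusted p = 0.0232). Markers of neutrophils, which store Lcn2 protein, summed to 2.11 to 4.83 CPM over 9 genes in the controls and 4.14, 22.3 and 8.58 CPM in tumour 1, 2 and 3, and their part in the result was not tested.

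Other genes called higher with a shift of 1 log2 unit or more in every tumour heart were less alike. Lox, which crosslinks collagen and elastin, was at 4.21, 4.77 and 4.31 CPM in the controls and 49.4, 43.4 and 14.1 CPM in tumour 1, 2 and 3 (3.02 ± 0.45, adjusted p = 0.0303). Dixdc1, a scaffold of Wnt signalling, was nearly equal in the 3 tumour hearts at 22.3, 20.0 and 21.4 CPM, against 6.20 to 8.66 CPM in the controls (1.49 ± 0.27, adjusted p = 0.039). Epop, a Polycomb-associated protein, was at 0.876 to 1.26 CPM and then 7.74, 4.50 and 3.32 CPM. A group of low-abundance genes met the rule although tumour 3 was far below tumour 1. Pmel was at 0.0957, 0.389 and 0.105 CPM in the controls and 1801, 893 and 2.03 CPM in tumour 1, 2 and 3. The mitochondrial folate enzyme Mthfd1l (0.0973 to 0.765 CPM, then 130, 56.7 and 1.29 CPM) and Paqr6 (0.0957 to 0.681 CPM, then 10.7, 5.13 and 1.38 CPM) had the same shape. In these 3 genes the shift of tumour 3 was a matter of a few CPM. Among the 50 called genes of the class, the median excess of tumour 3 was 22.1% of that of tumour 1, and 25% to 75% of them lay between 5.63% and 103%.

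**Figure D3:**
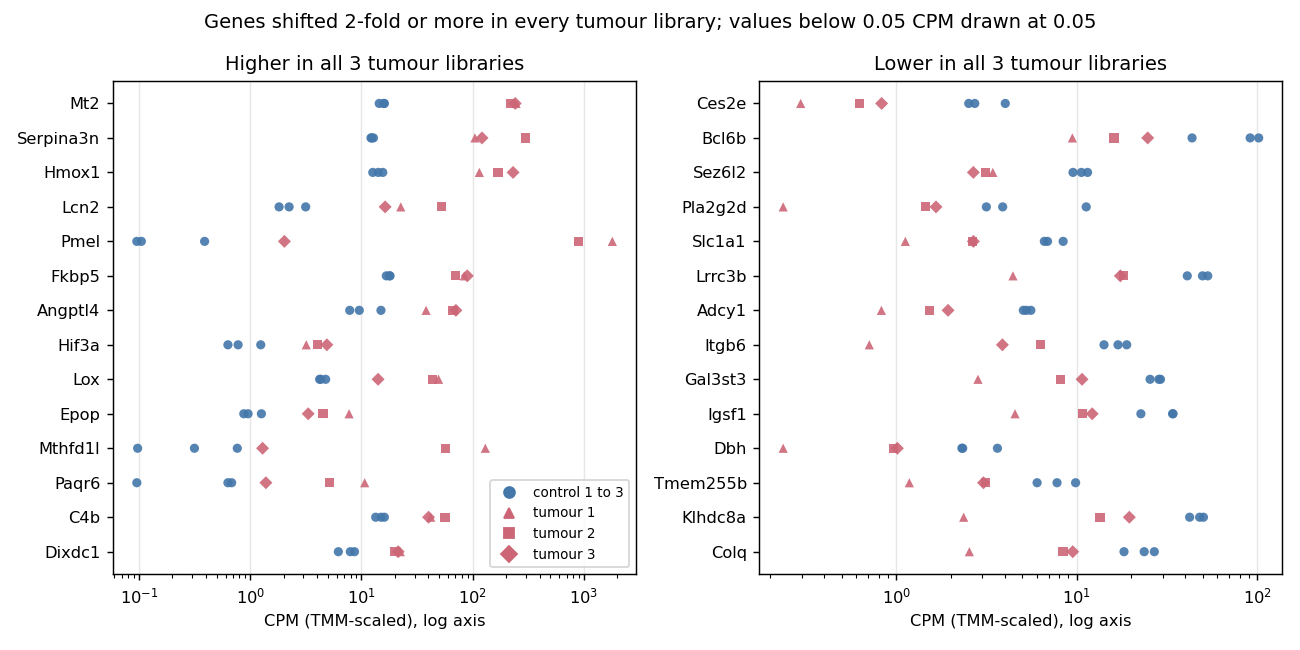
CPM on a log axis for 14 higher and 14 lower called genes, among those with the largest shift in their least shifted tumour library; circles are the 3 control libraries and triangles, squares and diamonds are tumour 1, 2 and 3. Mt2, Fkbp5 and Dixdc1 have nearly equal tumour libraries, whereas Pmel and Mthfd1l spread over more than a decade; among the lower genes tumour 1 is usually the lowest.

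Genes lower in all 3 tumour hearts were mostly lowest in tumour 1. Sez6l2, a neuronal membrane protein, was lowest in tumour 3, with 11.5, 9.53 and 10.6 CPM in the controls and 3.43, 3.12 and 2.68 CPM in tumour 1, 2 and 3 (-1.76 ± 0.23, edgeR adjusted p = 0.015). Itgb6, the integrin subunit that activates latent TGF-beta, was at 14.2, 16.9 and 18.9 CPM in the controls and 0.709, 6.30 and 3.87 CPM in tumour 1, 2 and 3 (-2.20 ± 0.51, adjusted p = 0.0401). Bcl6b, an endothelial transcriptional repressor, was at 43.5, 91.3 and 102 CPM and then 9.46, 16.1 and 24.7 CPM (-2.24 ± 0.37, adjusted p = 0.039). None of these groups overlapped, which the rule of the class ensured. The glutamate transporter Slc1a1 (6.62 to 8.41 CPM, then 1.12, 2.63 and 2.68 CPM), the adenylyl cyclase Adcy1 (5.06 to 5.57 CPM, then 0.828, 1.52 and 1.94 CPM) and Dbh, the enzyme that makes noradrenaline in sympathetic nerves (2.31 to 3.64 CPM, then 0.236, 0.97 and 1.01 CPM), fell as well. So did Colq, the collagen tail of acetylcholinesterase (18.3 to 26.9 CPM, then 2.54, 8.38 and 9.50 CPM), Lrrc3b (41.0 to 53.2 CPM, then 4.43, 18.2 and 17.4 CPM) and Klhdc8a (42.2 to 50.3 CPM, then 2.36, 13.4 and 19.6 CPM). Further genes named by the rule were Ces2e, Pla2g2d, Gal3st3, Igsf1 and Tmem255b, with log2 differences of -2.42, -2.48, -1.95, -1.72 and -1.69.

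Since cardiomyocyte transcripts were scarcer in tumour 1 and 2, the lowered genes were also scaled to the 15 cardiomyocyte genes. That scaling shifted the median over every tested gene in tumour 1, 2 and 3 from 0.11, 0.09 and 0.02 to 2.50, 1.03 and 0.05. The order of the tumour libraries given for raised genes, such as Hmox1 and Mt2, therefore depends on the scaling. Scaled to cardiomyocyte genes, 63 of the 66 genes lowered in all 3 hearts (95.5%) still had a negative difference, against 4.1% of all genes tested. Only 5 genes met the rule of that class under this scaling. The 66 were chosen for being low, so their sign is a description. For those named above, from Ces2e to Colq, it ranged from -1.64 (Pla2g2d) to -0.24 (Sez6l2). Among sarcomere genes only Myh7b and Ky of 26 were called, both lower, where 1.46% of all genes tested were called lower. Myh7b, a slow-type myosin heavy chain, was at 48.2, 54.7 and 74.3 CPM in the controls and 5.73, 12.5 and 24.5 CPM in tumour 1, 2 and 3 (-2.06 ± 0.39, adjusted p = 0.039, and -1.14 scaled to cardiomyocyte genes). Ky, a protein of the muscle Z-disc, was at 32.5, 34.0 and 35.7 CPM and then 1.66, 6.86 and 16.8 CPM (-2.04 ± 0.54, adjusted p = 0.0478, and -1.36 so scaled). Kcne1, a subunit of a cardiac potassium channel, was at 5.15 to 7.39 CPM and then 0.65, 2.29 and 2.58 CPM (-1.81 ± 0.44, adjusted p = 0.0426).

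Of 20 tested genes of vascular growth and Notch signalling, 4 were lower and none higher, against 1.46% and 5.33% of all genes tested. Apln, the ligand of the apelin receptor, was at 38.3, 28.9 and 33.5 CPM in the controls and 16.6, 12.4 and 11.0 CPM in tumour 1, 2 and 3, lowest in tumour 3 (-1.32 ± 0.20, edgeR adjusted p = 0.0323, but 0.31 when scaled to cardiomyocyte genes). Vegfa, the main endothelial growth factor, was at 304, 348 and 451 CPM and then 123, 134 and 210 CPM (-1.23 ± 0.22, adjusted p = 0.039, but 0.06 so scaled). The receptor Aplnr was at 68.0, 32.5 and 21.1 CPM in the controls and 11.3, 17.9 and 18.1 CPM in tumour 1, 2 and 3, so its controls were widely spread. Nrarp, a feedback inhibitor of Notch, was at 21.6 to 41.2 CPM and then 4.91, 10.2 and 17.6 CPM, with a negative difference under both scalings (-1.57 and -0.59). In tumour 3, where cardiomyocyte transcripts were at the control level, 16 of the 20 genes were below all controls, against 29% of all genes tested. The 14 endothelial markers summed to 2367 to 2755 CPM in the controls and 749, 1633 and 2510 CPM in tumour 1, 2 and 3, and their part in these differences was not tested.

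The genes raised in tumour 1 and 2 with tumour 3 at the control level were led by pigment and cell division genes. Gpnmb, a melanosomal glycoprotein, was at 3.35, 3.40 and 2.84 CPM in the controls and 2993, 1580 and 4.15 CPM in tumour 1, 2 and 3 (8.90 ± 1.62, edgeR adjusted p = 0.039). Mlph, which carries melanosomes along actin, was at 0.195 to 1.24 CPM and then 367, 122 and 0.83 CPM. Dct was at 8.71, 3.40 and 4.41 CPM in the controls and 2491, 1809 and 10.1 CPM in tumour 1, 2 and 3 (8.03 ± 1.44, adjusted p = 0.039), and Sox10 was at 1.89 to 2.92 CPM and then 319, 140 and 3.51 CPM. By the sorting above, Tyrp1 fell among the 65 genes raised in all 3 hearts, and Dct, with tumour 3 more than 0.5 above the control mean, in no class. Pigment genes were within a few CPM of the controls in tumour 3, though above all of them for each of the 6 tested members (31.9% of all genes tested). Tyrp1 had 0 counts in all 3 controls, which allows up to 3 counts, and 61345, 21693 and 15 counts in tumour 1, 2 and 3. It did not pass the test (adjusted p = 0.0631), and Mlana, with 1, 2 and 0 counts in the controls and 5006, 1679 and 5 in the tumour libraries, was removed by the filter on low counts. Of 6 tested melanocyte genes 5 were higher and none lower, a list partly chosen on these libraries, against 5.33% and 1.46% of all genes tested.

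Of 31 tested cell cycle genes, 27 were higher and none lower in the fit of all libraries. With tumour 3 as the only tumour library their median log2 difference was -0.11, against 0.02 over all genes tested. Over all genes tested, 5.33% were called higher in the fit of all libraries. Mki67, a marker of dividing cells, was at 1.34, 0.486 and 0.736 CPM in the controls and 182, 33.8 and 1.20 CPM in tumour 1, 2 and 3 (6.40 ± 1.36, edgeR adjusted p = 0.039). Top2a, the topoisomerase of mitosis, was at 1.36 to 2.10 CPM and then 257, 82.0 and 1.38 CPM. The mitotic kinases Cdk1 (0.67 to 0.946 CPM, then 96.9, 43.9 and 1.20 CPM), Plk1 (0.525 to 0.957 CPM, then 62.0, 34.2 and 1.11 CPM) and Aurkb (0.287 to 0.841 CPM, then 51.5, 26.7 and 0.369 CPM) followed the same order. All 31 genes were above all controls in tumour 1 and in tumour 2, and 8 were in tumour 3, against 48.2%, 45.4% and 31.9% of all genes tested. Birc5, Ccna2, Anln and Cdca3, which act in mitosis and cytokinesis, and Pianp completed the 10 genes named for this class, with log2 differences of 6.01, 5.23, 5.32, 5.93 and 5.62.

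The shift in tumour 2 was mostly smaller than that in tumour 1. Over the 375 called genes of the class, the excess over the control mean in tumour 2 was 46.6% of that in tumour 1 (median; the middle of the distribution, from its 25% to its 75% point, ran from 37% to 57.1%). For called cell cycle genes it was 48.4%. The excess of tumour 2 was 31.6% of that of tumour 1 for 5 genes of the integrated stress response and 86.7% for 7 genes of the matrix.

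Of 14 tested genes of the integrated stress response, 5 were called higher and none lower in the fit of all libraries. With tumour 3 as the only tumour library their median log2 difference was 0.01, against 0.02 over all genes tested. The share called higher over all genes tested was 5.33% in the fit of all libraries. Phgdh, the first enzyme of serine synthesis from glucose, was at 1.91, 1.75 and 1.68 CPM in the controls and 129, 46.0 and 1.29 CPM in tumour 1, 2 and 3 (5.05 ± 1.08, edgeR adjusted p = 0.039). Psat1, which acts after it, was at 2.53 to 2.94 CPM and then 109, 44.5 and 3.97 CPM. The asparagine synthetase Asns (3.57 to 3.92 CPM, then 122, 37.5 and 1.94 CPM) and the amino acid transporter Slc7a5 (6.89 to 7.46 CPM, then 248, 83.2 and 8.86 CPM) were alike. In tumour 3 Asns and Phgdh were below all controls. Of 24 glycolysis genes 4 were higher and 2 lower, against 5.33% and 1.46% of all genes tested. Among the higher were the lactate exporter Slc16a3 (2.58 to 4.20 CPM, then 135, 48.3 and 1.94 CPM), the glucose transporter Slc2a1 (22.2 to 29.2 CPM, then 86.7, 63.5 and 34.8 CPM) and Pfkfb3 (8.20 to 10.4 CPM, then 33.6, 28.2 and 14.6 CPM). Pfkfb2, the cardiac counterpart of Pfkfb3, was 1 of the 2 lower, at 118 to 164 CPM in the controls and 30.9, 50.4 and 86.8 CPM in tumour 1, 2 and 3 (-1.30 ± 0.30, adjusted p = 0.0405).

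Matrix genes split the 3 hearts. Of 32 tested members 7 were higher and none lower, against 5.33% and 1.46% of all genes tested. Fn1, the matrix protein fibronectin, was at 76.8, 79.7 and 76.3 CPM in the controls and 546, 405 and 60.8 CPM in tumour 1, 2 and 3 (2.13 ± 0.55, edgeR adjusted p = 0.0465). Tenascin C, encoded by Tnc, was at 1.16 to 1.91 CPM and then 66.3, 89.0 and 0.461 CPM. The protease Mmp14 was at 25.6 to 27.5 CPM and then 133, 122 and 36.9 CPM, and Mmp3 was at 3.47 to 6.13 CPM and then 10.9, 26.1 and 11.3 CPM, above all controls in every tumour library. With Spp1 and Col12a1, Fn1 and Tnc were below all controls in tumour 3. In tumour 3, 24 of the 32 genes were below all controls (29% of all genes tested), whereas in tumour 2 27 of them were above (45.4% of all genes tested). Col15a1, a basement membrane collagen, was at 119 to 152 CPM in the controls and 73.1, 157 and 27.1 CPM in tumour 1, 2 and 3, and was lower with tumour 3 alone (-2.31, adjusted p = 0.0015). The 9 fibroblast markers summed to 2296 to 2485 CPM in the controls and 835, 1910 and 2189 CPM in tumour 1, 2 and 3, and their part in these differences was not tested.

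Genes of heart muscle contraction and energy supply mostly did not pass the test, and their values were lowest in tumour 1. Of 26 sarcomere genes, 26 were below all controls in tumour 1, 23 in tumour 2 and 12 in tumour 3, and of 17 calcium cycling genes 16, 14 and 9 were. Over all genes tested these shares were 42%, 33.6% and 29%. Myh6, which encodes the predominant myosin of adult mouse ventricle, was at 36333, 33844 and 37521 CPM in the controls and 6448, 17814 and 35921 CPM in tumour 1, 2 and 3, and did not pass the test (-0.84 ± 0.52, edgeR adjusted p = 0.252). The calcium pump Atp2a2 was at 19804, 18930 and 17041 CPM and then 3827, 11655 and 21252 CPM (-0.60 ± 0.49, adjusted p = 0.377). edgeR called 0 of 83 oxidative phosphorylation genes, against 6.79% of all genes tested. Of the 83, 25 had an unadjusted p below 0.05 and DESeq2 called 1. Among all 12778 genes tested, 4395 had such an edgeR p and DESeq2 called 2272. The median log2 difference of the 83 was -1.64, -0.82 and 0.00 in tumour 1, 2 and 3, against 0.11, 0.09 and 0.02 over all genes tested. In tumour 1 and in tumour 2, 81 of the 83 were below all controls, and in tumour 3 11 were, against 42%, 33.6% and 29% of all genes tested. The 7 called genes of the class lowered in tumour 1 and 2 had modest differences, from -1.04 (Rflnb and Tspan13) to -0.86 (Qrsl1). Tspan13, a tetraspanin, was at 77.7, 90.7 and 95 CPM in the controls and 26.7, 38.5 and 63.0 CPM in tumour 1, 2 and 3, and Rab3a, a vesicle GTPase, was at 64.8 to 69.2 CPM and then 28.4, 28.8 and 50.3 CPM. Rflnb, Tspan13, Ung, Anks1, Rab3a, Qrsl1 and Itpkb all turned to a positive difference, of 0.05 to 0.39, when scaled to cardiomyocyte genes.

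Myh7, the fetal and slow myosin gene, was raised in tumour 1 and 2. It was at 144, 100 and 176 CPM in the controls and 375, 1273 and 174 CPM in tumour 1, 2 and 3 (2.12 ± 0.56, edgeR adjusted p = 0.0479), highest in tumour 2 and inside the control range in tumour 3. Actn1, the non-muscle actinin, was the other called member of 14 cardiac load genes, at 30.3 to 35.1 CPM and then 80.4, 85.8 and 35.4 CPM. Of all genes tested, 5.33% were called higher. The natriuretic peptide Nppa was at 214, 271 and 197 CPM in the controls and 337, 424 and 139 CPM in tumour 1, 2 and 3, above all controls in tumour 1 and 2 and below them in tumour 3 (0.41 ± 0.36, adjusted p = 0.406). Nppb was at 264, 497 and 518 CPM and then 166, 440 and 236 CPM (-0.60 ± 0.35, adjusted p = 0.228).

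In tumour 3, the heart with an almost unchanged cardiomyocyte share, some genes of fatty acid use were high. Of 39 tested genes of fatty acid and lipid droplet metabolism, 35 were above all controls in tumour 3 (31.9% of all genes tested), while 31 were below all controls in tumour 1 and 27 in tumour 2 (42% and 33.6%). In the fit of all libraries 3 of the 39 were called, all higher, where 5.33% of all genes tested were called higher. Angptl4, a secreted inhibitor of lipoprotein lipase, was at 7.85, 15.0 and 9.56 CPM in the controls and 38.1, 66.5 and 70.7 CPM in tumour 1, 2 and 3 (2.44 ± 0.50, edgeR adjusted p = 0.039). In trained mice without tumour it ranged from 16.5 to 73.2 CPM. Plin2, the lipid droplet coat protein, was nearly equal in the 3 hearts at 112, 107 and 133 CPM, against 59.2 to 61.9 CPM in the controls (0.96 ± 0.14, adjusted p = 0.0283). Both had their highest value in tumour 3.

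With tumour 3 as the only tumour library, 182 of 12995 genes (1.4%) were called, 113 higher (0.87%) and 69 lower (0.531%), and 11 of the 39 lipid genes were higher. That fit takes the spread of tumour 3 from the other groups, since a single library has none of its own. Pdk4, the kinase that closes the entry of pyruvate into mitochondria, was at 375, 765 and 977 CPM in the controls and 744, 1387 and 4000 CPM in tumour 1, 2 and 3. Its group difference did not pass (1.54 ± 0.60, adjusted p = 0.103), and that of tumour 3 alone did (2.51, adjusted p = 0.037). The lipases Pnpla2 and Lipe, which release fatty acids from droplets, had the same pattern. Pnpla2 was at 572 to 629 CPM in the controls and 309, 567 and 1200.2 CPM in tumour 1, 2 and 3, and Lipe was at 41.1 to 56.3 CPM and then 34.8, 77.6 and 123 CPM. The acyl-CoA thioesterase Acot1 (21.0 to 26.3 CPM, then 40.8, 23.1 and 104 CPM) and the uncoupling protein Ucp3 (41.2 to 79.1 CPM, then 30.2, 89.8 and 203 CPM) were also called with tumour 3 alone, as were the droplet protein Plin4, the carnitine transferase Cpt1a and Gpihbp1, which anchors lipoprotein lipase on capillaries. Tumour 1 was below all controls for Lipe, Pnpla2, Ucp3, Plin4 and Gpihbp1.

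**Figure D4:**
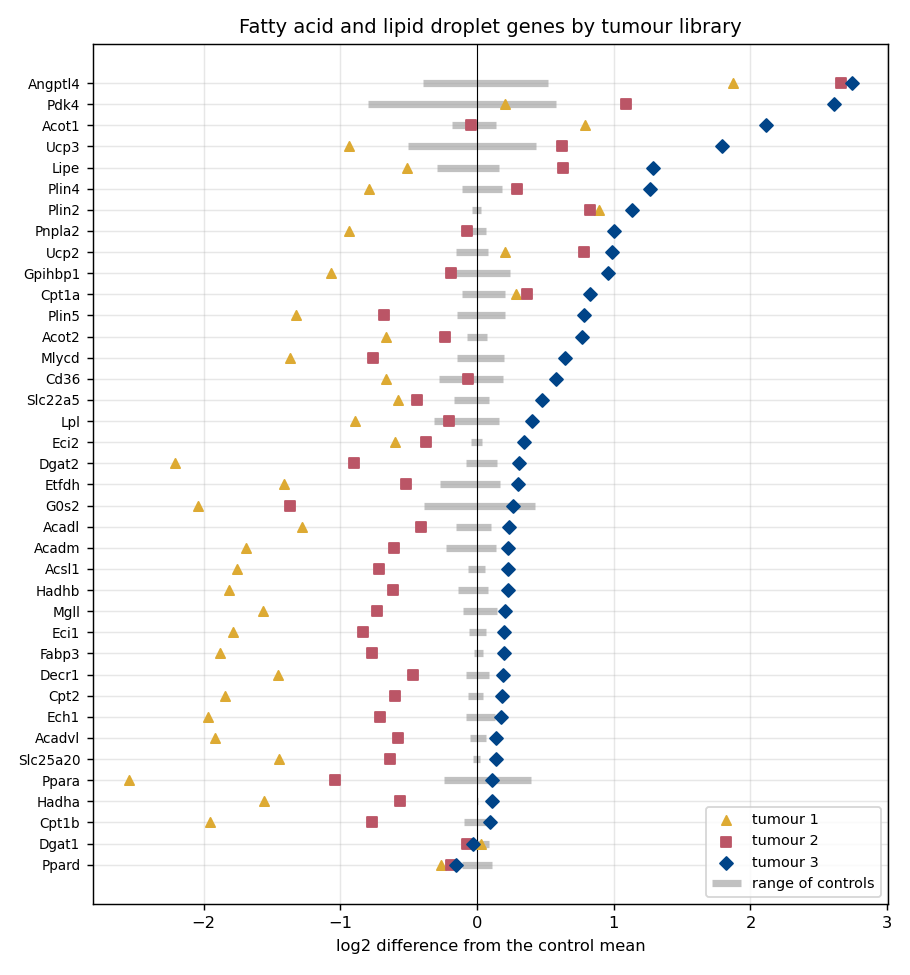
Log2 difference from the control mean for 38 fatty acid and lipid droplet genes in tumour 1 (triangles), tumour 2 (squares) and tumour 3 (diamonds), sorted by tumour 3; grey bars are the range of the 3 controls. Tumour 3 is above all controls for 34 of them, while tumour 1 is below all controls for 31.

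The list of atrophy ligases and autophagy had the same split. edgeR called 0 of its 26 tested members in the fit of all libraries, against 6.79% of all genes tested. Of the 26, 7 had an unadjusted p below 0.05 and DESeq2 called 2, against 4395 and 2272 among all 12778 genes. Above all controls were 7, 8 and 19 in tumour 1, 2 and 3 (48.2%, 45.4% and 31.9% of all genes tested). Below all controls were 18, 13 and 4 (42%, 33.6% and 29%). Foxo3, a transcription factor that drives muscle atrophy genes, was at 128, 128 and 104 CPM in the controls and 84.7, 129 and 256 CPM in tumour 1, 2 and 3 (1.10 with tumour 3 alone, edgeR adjusted p = 0.0024). Bnip3, a receptor for the removal of mitochondria, was at 241 to 300.5 CPM and then 324, 346 and 696 CPM (1.40, adjusted p = 0.0016). Gabarapl1, a protein of the autophagosome membrane, was at 118 to 146 CPM and then 88.3, 110 and 272 CPM, the ligase subunit Fbxo31 was at 125 to 152 CPM and then 77.4, 127 and 283 CPM, and the lysosomal protease Ctsl was at 167 to 200.4 CPM and then 197, 217 and 359 CPM. The standard atrophy ligases did not pass in either fit. Fbxo32 was at 143, 176 and 167 CPM in the controls and 87.9, 172 and 262 CPM in tumour 1, 2 and 3 (0.11 ± 0.30, adjusted p = 0.801; 0.71 with tumour 3 alone, adjusted p = 0.066). Trim63 was at 239, 269 and 306 CPM and then 73.9, 188 and 376 CPM (-0.35 ± 0.41, adjusted p = 0.543; 0.48 with tumour 3 alone, adjusted p = 0.25). Both were lowest in tumour 1 and above all controls in tumour 3.

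Further genes were shifted in tumour 3 while tumour 1 and 2 stayed near the controls. Ehhadh, a peroxisomal enzyme of fatty acid oxidation, was at 15.7, 23.2 and 26.3 CPM in the controls and 27.6, 24.5 and 90.3 CPM in tumour 1, 2 and 3 (2.07 with tumour 3 alone, edgeR adjusted p = 0.0022). Fah, the last enzyme of tyrosine breakdown, was at 24.6 to 30.0 CPM and then 26.2, 25.3 and 81.1 CPM (1.54, adjusted p = 0.0012). Tacc2, a centrosomal protein abundant in heart, was at 523, 523 and 523 CPM and then 467, 656 and 1449 CPM (1.48, adjusted p = 7.01e-04). Pth1r, the parathyroid hormone receptor, was at 4.98 to 7.10 CPM and then 5.50, 7.69 and 16.1 CPM, and Tfdp2, a partner of E2F factors, was at 76.2 to 99.4 CPM and then 77.4, 98.2 and 201 CPM. Lrg1, an acute phase glycoprotein, was raised in tumour 2 and 3 only, at 36.9 to 45.1 CPM in the controls and 36.2, 101 and 108 CPM in tumour 1, 2 and 3 (1.42 with tumour 3 alone, adjusted p = 0.0015). On the lower side, Plxnd1, an endothelial semaphorin receptor, was at 220 to 269 CPM and then 292, 223 and 96.5 CPM (-1.29, adjusted p = 0.0099), and Serpinh1, the collagen chaperone, was at 249 to 291 CPM and then 297, 372 and 120.0 CPM (-1.16, adjusted p = 0.01). Fscn1, an actin-bundling protein, and Micall2, a junction-trafficking adaptor, were called lower with tumour 3 alone too (-1.07 and -1.48, both with an adjusted p = 0.022). The matricellular protein gene Thbs1 had split controls at 17.5, 214 and 185 CPM, and was at 67.9, 90.2 and 7.01 CPM in tumour 1, 2 and 3, so its tumour libraries overlapped the controls.

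**Figure D5:**
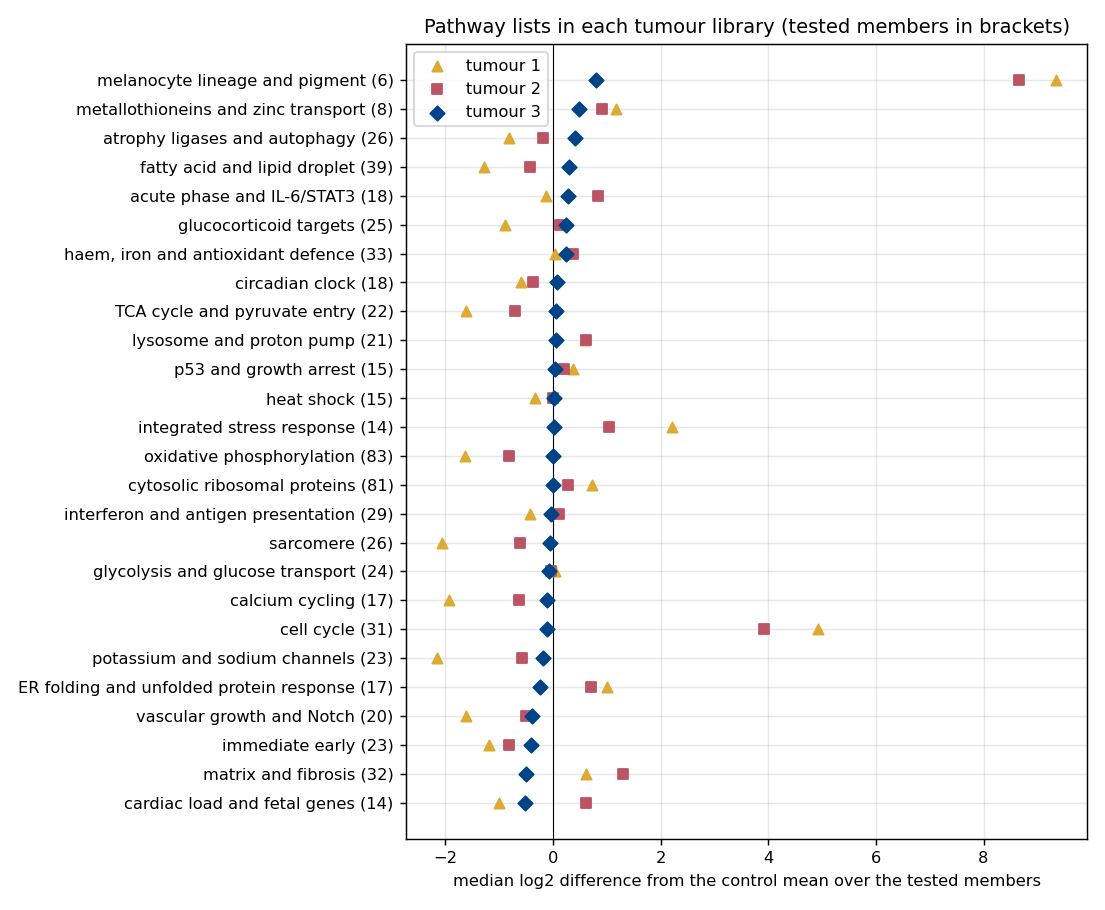
Median log2 difference from the control mean over the tested members of each of 26 gene lists in tumour 1 (triangles), tumour 2 (squares) and tumour 3 (diamonds), sorted by tumour 3. Cell cycle and melanocyte lists are far to the right in tumour 1 and 2, and energy and muscle lists are to the left there and near 0 in tumour 3. The fatty acid list (0.30) and the atrophy and autophagy list (0.42) are above 0 in tumour 3 alone. Others, such as the clock list (0.08), are so by less.

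With the melanocyte share as a covariate in the fit, 102 genes were called (0.798%), 87 higher (0.681%) and 15 lower (0.117%), and 40 of them were among the 868. Since tumour 1 and 2 set the slope, the tumour term of that fit rests mainly on tumour 3. Of the 65 genes raised in all 3 hearts 14 were called there, with Mt2 at 3.91 (edgeR adjusted p = 6.81e-07), Hmox1 at 4.03 (2.79e-08), Fkbp5 at 2.24 (5.49e-04), Serpina3n at 3.97 (0.0015) and Lcn2 at 3.53 (0.015). Of the 66 lowered genes 7 were called, among them Sez6l2 at -1.95 (0.0097), Gal3st3 at -1.20 (0.04) and Myh7b at -1.27 (0.018). On the tumour side, 1 library without abundant melanocyte transcripts stands behind these values.

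Marker lists of other cell types were followed beside these results. Macrophage markers summed to 441 to 566 CPM in the controls and 454, 772 and 424 CPM in tumour 1, 2 and 3, and smooth muscle and pericyte markers to 1368 to 1610 CPM and then 492, 1022 and 1321 CPM. Red cell genes summed to 615 to 1650 CPM in the controls and 426, 568 and 2000.0 CPM in tumour 1, 2 and 3, with all 7 tested members above all controls in tumour 3 (31.9% of all genes tested). Schwann cell markers, which overlap with melanocytes through their shared neural crest origin, summed to 9.57 to 13.6 CPM in the controls and 301, 54.1 and 11.1 CPM in the tumour libraries. Mbp, a myelin protein, was at 3.21 to 3.78 CPM and then 196, 30.5 and 4.70 CPM (4.50 ± 0.99, edgeR adjusted p = 0.039), and S100b was at 1.26 to 1.53 CPM and then 35.8, 8.80 and 2.12 CPM. Gfra3, a receptor subunit for the ligand artemin, went the other way, at 2.39, 2.53 and 2.84 CPM and then 1.00, 1.52 and 1.11 CPM (-1.08 ± 0.27, adjusted p = 0.0441, but 0.23 when scaled to cardiomyocyte genes). T cell, NK cell and B cell markers each stayed at or under 4.92 CPM in sum in all 6 libraries. edgeR called 0 of 29 interferon and antigen presentation genes (4 at an unadjusted p below 0.05, 1 called by DESeq2), with medians of -0.42, 0.11 and -0.04 in tumour 1, 2 and 3. Among all 12778 genes tested, edgeR called 6.79%, 4395 had an unadjusted p below 0.05 and DESeq2 called 2272. The part of these cell types in the gene results was not tested.

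Of 23 tested immediate-early genes, edgeR called 1 lower and 2 higher, against 1.46% and 5.33% of all genes tested. Control 1 stood apart from control 2 and 3. Fosb, an AP-1 subunit, was at 0.861, 34.0 and 38.1 CPM in control 1, 2 and 3 and 1.89, 1.73 and 0.83 CPM in tumour 1, 2 and 3 (-3.99 ± 0.93, edgeR adjusted p = 0.0414), and its difference was 0.77 with control 1 as the only control. Ier3, a stress-induced survival gene of the same list, was higher, at 39.0, 20.5 and 23.6 CPM and then 44.2, 60.7 and 53.4 CPM (0.93 ± 0.22, adjusted p = 0.0418). The cell cycle inhibitor Cdkn1a was at 60.5, 109 and 148 CPM in the controls and 183, 132 and 199 CPM in tumour 1, 2 and 3, and did not pass (0.71 ± 0.37, adjusted p = 0.186). The clock genes Per3 (10.7 to 11.9 CPM, then 7.33, 9.42 and 18.0 CPM) and Dbp (8.95 to 28.8 CPM, then 6.27, 8.24 and 18.4 CPM) did not pass either, and edgeR called 0 of 18 clock genes (4 at an unadjusted p below 0.05, 3 called by DESeq2). Among all 12778 genes tested, edgeR called 6.79%, 4395 had an unadjusted p below 0.05 and DESeq2 called 2272.

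Whether the tumour difference was the same in trained mice was tested in the same fit as an interaction. It differed for Hmox1, Mt2 and Fkbp5 of 12778 genes (0.0235%), and 1846 genes had an unadjusted p below 0.05. Hmox1 was at 10.5 to 12.7 CPM in tumour trained and 11.2 to 12.0 CPM in trained hearts. Mt2 was at 21.2 to 29.1 CPM and 13.3 to 19.2 CPM, and Fkbp5 at 12.3 to 20.5 CPM and 14.8 to 16.8 CPM, all far below the untrained tumour libraries. Tyrp1 had 0 counts in all 6 of these libraries, so that tumour trained hearts held no detectable melanocyte transcripts of this gene, within a limit of 3 counts per library.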

How the data were processed

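RNA of mouse hearts was sequenced after Trizol extraction and a Vazyme VAHTS library kit, per the labels' protocols. The authors deposited 1 table of estimated counts per gene for the whole series, not normalized; HISAT2 2.2.1 and featureCounts are named in the submitters' processing notes, as are the builds GRCm39 and mm10, with annotation and strand setting not given in the sources used here. Between 7.09% and 8.92% of values in a library were not whole, and counts were rounded. Without the strand setting, reads of overlapping or antisense gene pairs cannot be separated. Of 17397 genes, 4619 were removed by edgeR's filterByExpr and 12778 were tested.

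CPM values were scaled by TMM. Genes were tested with edgeR 4.0.16 (R 4.3.3) in 1 quasi-likelihood fit of 12 libraries, with 8 residual degrees of freedom and Benjamini-Hochberg adjustment. SE is the log2 difference divided by the square root of F. Library differences used log2 CPM with a prior count of 2. Alternatives used limma 3.58.1 functions within edgeR and DESeq2 1.42.0. Replicate pairs all differed by more than sampling noise, and none was merged. The chi-square per gene was 6.95 to 11.2 within the controls and 103 to 370 within the tumour group. It was 4.20 to 31.2 within trained and 3.67 to 5.05 within tumour trained. The spread was thus unequal between groups, while the fit takes 1 spread per gene from all 12 libraries. With only the 6 libraries compared, edgeR called 3 genes in place of 868. Intervals and limits of 3 counts cover counting error only. Scripts were tested on simulated data.

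The members and the 44 gene lists were chosen with earlier results of these data known. Named genes were a panel of heart, stress and melanocyte genes; the 15 called genes in each direction with the largest smallest shift among those shifted in all 3 hearts; up to 10 per direction in the other classes; and the list members with the smallest p, at most 4 per list. Provisional symbols were left out. Further genes named within lists were chosen after their values were seen, and a few genes meeting these rules are left unreported.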

Additional observations from a re-analysis of the deposited data

Results flagged for a closer look

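The difference between tumour and no-tumour hearts was larger in untrained than in trained mice for 3 genes, by edgeR's test of the difference itself. Hmox1, which breaks down haem, had an interaction of 3.627 on the log2 scale (adjusted p = 8.19e-04). For the metallothionein Mt2 it was 3.313 (adjusted p = 2.05e-04), and for the glucocorticoid target Fkbp5 it was 2.203 (adjusted p = 0.016). In each case all 3 untrained tumour libraries were above all 9 other libraries. DESeq2 called 269 genes for the same contrast, and with control 1 as the only control edgeR called 0. Groups of 3 libraries are too small for a formal test for a single outlying library, and none was run. Leaving out 1 library at a time gave 2 to 4002 genes for this contrast, the highest without tumour 3.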

How the results depend on the processing

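Every alternative changed the number of genes called, in all from 1 to 9189. Against 868 in the fit as reported, edgeR called 1971 with library size alone, 102 with the melanocyte share as a covariate, 182 with tumour 3 as the only tumour library, 1 (Mt2) with control 1 as the only control, 9189 scaled to cardiomyocyte genes, 3 with only the 6 libraries compared and 5 against a minimum log2 change of 1, and DESeq2 called 2272. Leaving out 1 library gave 4 to 7043. With the replicate number as a block 16 genes were called. Same-numbered tumour and control libraries did not deviate together (correlations of -0.069, 0.0064 and 0.0094), so the numbers do not pair the libraries. For the interaction, 3 genes became 269 with DESeq2, 5 with library size alone, 12 with the covariate, 32 with tumour 3 alone, 0 with control 1 alone and 2 to 4002 without 1 library. With a smaller minimum difference in place of 1, the classes (all 3 higher, all 3 lower, tumour 1 and 2 higher and lower, tumour 3 higher and lower) held 241, 224, 1840, 1275, 136 and 76 genes, and scaled to cardiomyocyte genes 167, 5, 5492, 4, 1 and 19. With library size alone, tumour 1 and 2 lower held 137 and tumour 3 lower 17, and without 1 control all 3 lower held 59 to 123 and tumour 3 lower 14 to 21. With all 14 listed melanocyte genes, the share was 1.68%, 0.761% and 0.00818% in tumour 1, 2 and 3 and 0.00585%, 0.00691% and 0.00656% in control 1, 2 and 3. The cause of these changes was not tested.

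Of the called genes named, Mt2 was called in all 25 alternatives, Hmox1 and Fkbp5 in 24, Serpina3n in 23, Lcn2 in 21 and Sez6l2 in 18. Of the 93 called genes named, 85 were called in fewer than 50% of them, such as Angptl4 and Plin2 in 11, Vegfa in 8, Myh7 and Aplnr in 5 and Irs2 and Anks1 in 4. For the most stable ones, the highest adjusted p was 0.0114 for Mt2, 0.102 for Hmox1 and 0.426 for Fkbp5. With tumour 3 as the only tumour library, the log2 difference turned sign for Trim63 (0.48), Nppa (-0.70), Myh6 (0.011), Atp2a2 (0.20), Dbp (0.24), Top2a (-0.36), Pianp (-0.36), Aurkb (-0.41), Ccna2 (-0.39), Slc16a3 (-0.78), Phgdh (-0.45), Asns (-0.94), Tnc (-1.62), Fn1 (-0.34), Col12a1 (-0.15) and Spp1 (-1.51). With the melanocyte share as a covariate it turned for Trim63 (0.50), Nppa (-0.24), Myh6 (0.048), Atp2a2 (0.30) and Dbp (0.090). Scaled to cardiomyocyte genes it turned for Trim63 (0.50), Nppb (0.64), Atp2a2 (0.22), Vegfa (0.056), Apln (0.31), Dbp (0.55), Rflnb (0.047), Tspan13 (0.11), Ung (0.23), Anks1 (0.31), Rab3a (0.36), Qrsl1 (0.39), Itpkb (0.37), Thbs1 (0.39), Plxnd1 (1.57), Serpinh1 (1.61), Fscn1 (1.53), Micall2 (1.09), Nfkbia (0.40), Gfra3 (0.23) and Col15a1 (0.85). With control 1 as the only control it turned for Nppb (0.067), Thbs1 (1.63), Fosb (0.77) and Irs2 (0.057), and with library size alone for Plxnd1 (0.068) and Serpinh1 (0.23). Per3, at 0.017 in the fit reported, was at -0.019 with DESeq2, -0.022 with its size factors, -0.038 with the replicate block and -0.00713 with only the 6 libraries. Leaving out 1 library at a time turned the sign of genes raised or lowered mainly in tumour 3, with ranges of -0.35 to 0.42 for Fbxo32, -1.08 to 0.056 for Trim63, -0.48 to 0.25 for Per3, -1.16 to 0.24 for Dbp, -0.15 to 0.93 for Fah, -0.023 to 0.78 for Tfdp2, -0.58 to 0.082 for Plxnd1 and -0.37 to 0.28 for Serpinh1. It did so too for Pnpla2 (-0.49 to 0.56), Plin4 (-0.20 to 0.85), Ucp3 (-0.053 to 1.27), Foxo3 (-0.20 to 0.68), Gabarapl1 (-0.47 to 0.51), Fbxo31 (-0.44 to 0.60) and Gpihbp1 (-0.62 to 0.48). Depth limited genes below about 0.3 CPM, where 3 counts or fewer were seen in a library.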
